A study of Homo sapiens with 6 samples.

Results

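The genes described here copy the genome in S phase. They are 45 genes of origin licensing, the replicative helicase, the clamp and its loader, the DNA polymerases and S-phase entry, and were taken by gene symbol from the annotation of the array. All 45 were on the array, with 70 probes among its 47231, and they were among 20046 genes that had a symbol. The cells were HeyA8-MDR, an established human ovarian cancer line in its multidrug-resistant form, treated with an siRNA against GRAMD1B (siGRAMD1B) or with a control siRNA (siControl). Both groups are the same resistant line, so no drug-sensitive parent is compared here. Each group had 3 Illumina bead arrays, numbered 2, 3 and 4 for siGRAMD1B and 1, 2 and 4 for siControl. Nothing in the labels tells whether replicate arrays were separate cultures. The p-values therefore rest on array-to-array spread alone, some of which may be technical, and having 3 arrays a group limits precision throughout.

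Replication begins when the origin recognition complex (ORC) marks sites on the DNA and, with CDC6 and CDT1, loads the MCM helicase ring. CDC45 and the GINS complex then join the ring and turn it into a running helicase. Polymerase alpha-primase makes the primers, polymerases delta and epsilon extend them on the sliding clamp PCNA, and RPA coats the single strands laid bare. Most of these genes are transcribed in late G1 and S phase under E2F transcription factors, and ovarian cancers often carry extra copies of CCNE1, the cyclin that drives this step.

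Among the 45 replication genes, RPA3 rose in siGRAMD1B cells and ORC2 fell, and the other 43 did not pass the test (limma, adjusted p under 0.05 over all 28338 probes tested). The share of all 14261 tested genes called was 5.71% higher and 3.72% lower. The 1 of 45 replication genes called in each direction lay below those shares, by too few genes to be read as a result. Of their 65 tested probes 1 was called each way, where the background over all tested probes was 3.89% higher and 3.21% lower (7.09% in either direction). RPA3, the smallest subunit of the single-strand binding complex, was 1.42-fold higher, and ORC2, a core subunit of the origin recognition complex, 1.31-fold lower. In the remaining 43 genes the differences were small. At the brightest probe, the 95% interval of each of these 43 lay inside a 1.5-fold change in either direction. Intervals were not adjusted for the number of genes and had a median half-width of 0.22 on the log2 scale over the 45. Intensities carry a background offset, which understates fold changes of dim probes, so the 1.5-fold bound is loosest for the dim ones. Every value below is a normalized log2 intensity, and every difference is siGRAMD1B minus siControl on the log2 scale, read at the brightest probe of a gene unless another is named.

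**Figure D1:**
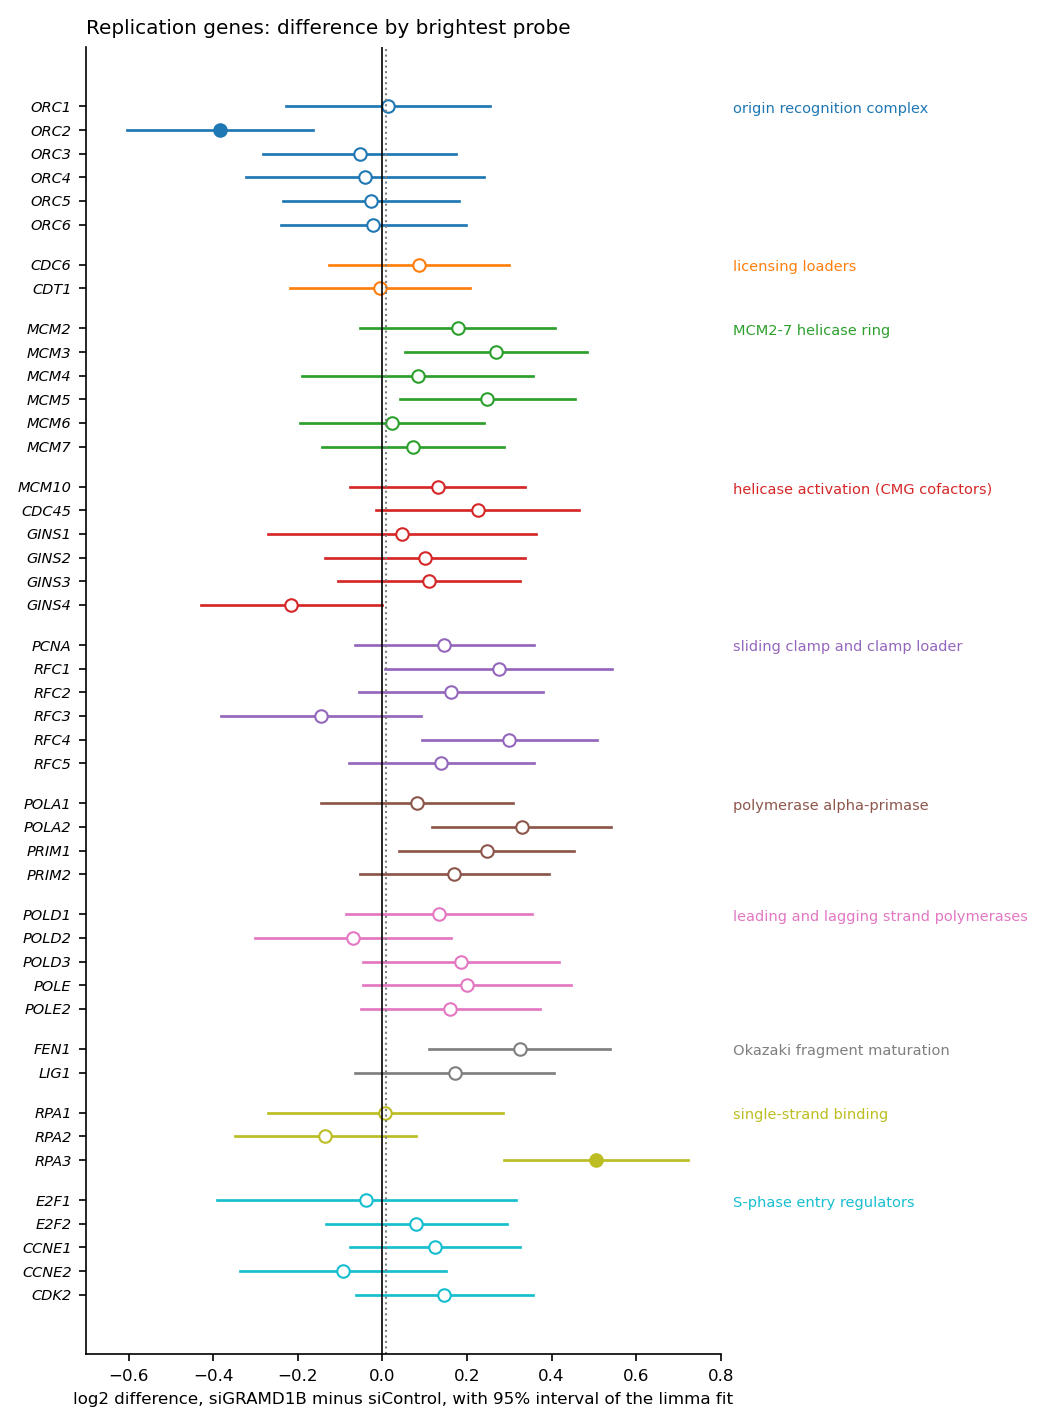
Log2 difference, siGRAMD1B minus siControl, of the 45 replication genes at their brightest probe, grouped by role, with the 95% interval of the limma fit as a bar. Filled points passed an adjusted p of 0.05 (RPA3 at 0.50 and ORC2 at -0.38), open points did not, and the dotted line marks the median of all tested genes (0.01).

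The genes leaned to the upper side as a set. They were chosen with earlier results of these data known, so this lean is a description and no independent finding. Of the 45, 33 had a positive and 12 a negative difference, with a median of 0.11, against a median of 0.01 over the 14261 tested genes, of which 47.8% were negative. Among the 3496 tested genes brighter than the median replication gene, the median was also 0.01, and 7.95% were called higher and 5.66% lower. All 3 siGRAMD1B arrays lay above all siControl arrays for 9 replication genes (background 16%) and below them for 2 (background 12.5%), and the groups overlapped for 34. At an unadjusted p under 0.05, 8 were higher and 2 lower, where the background over all tested genes was 13.4% and 9.96%. Called genes were thus below the background on both sides. Genes with separate groups, and genes at an unadjusted p under 0.05, were above it on the upper side and below it on the lower. Each of these gaps came to a few genes and is not read as a result.

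The same differences were also laid out array by array. Deviations from a gene's own mean restate its difference, so they add no separate support for the lean. The median deviation of the 45 genes from their own mean of the 6 arrays was 0.08, 0.05 and 0.01 on siGRAMD1B arrays 2, 3 and 4, against -0.04, -0.10 and -0.04 on siControl arrays 1, 2 and 4. The same median over all tested genes stayed between -0.01 and 0.01 on every array. SiGRAMD1B array 4 lay closest to zero, and siControl array 2 lay farthest from it. The median difference of the 45 was 0.08 without siControl array 2 and 0.13 without siControl array 1, the lowest and highest values when 1 array was left out. In RNA of whole cultures, a different share of cells in S phase and a different amount of each mRNA per cell cannot be told apart.

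**Figure D2:**
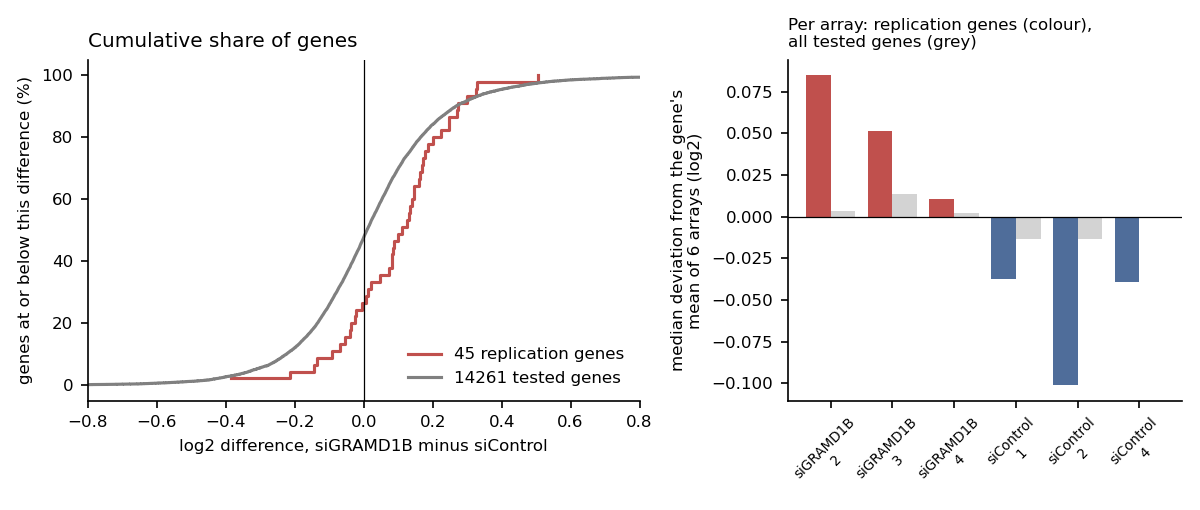
Left, the cumulative share in percent of genes at or below each log2 difference, siGRAMD1B minus siControl, for the 45 replication genes (red) and all 14261 tested genes (grey). Right, the median deviation in log2 units of the same genes from their mean of the 6 arrays, in colour for the replication genes and in grey for all tested genes. The red curve lies to the right of the grey one over its middle part, and the coloured bars run from 0.08 on siGRAMD1B array 2 to -0.10 on siControl array 2.

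The promoters of these genes were read for the words of the factors that are known to drive them. RefSeq starts on GRCh38.p14 were given for 37 of the 45, and the 250 bases before the first listed start were searched on both strands. None was given for RPA3, the gene that rose, or for MCM4, MCM5, GINS4, POLD3, RPA2, CCNE2 and CDK2. The counts and medians of replication genes below leave them out. The words were TTTCCCGC, TTTCGCGC, TTTGCCGC and TTTGGCGC for E2F, and CCAAT for NF-Y, the CCAAT-box factor. An E2F word stood in 14 of the 37 promoters (37.8%), against 2.79% of 27305 promoters and 4.33% of those of 11181 tested genes. CCAAT stood in 21 of 37 (56.8%), against 33% of all promoters and 35.1% of those of tested genes. The median difference was 0.08 in the 14 replication genes that held an E2F word and 0.13 in the 23 that did not. A word match is a description of the letters and not a bound site. Sequences are printed for ORC2, the gene that fell, for POLA2 and FEN1, whose adjusted p-values were the nearest above the threshold among the brightest probes, for MCM3, the helicase subunit with the smallest p, and for MCM6, with the most E2F matches (4, as overlapping pairs on opposite strands at 2 places). They run 5′ to 3′ in the direction of the gene, and capitals mark the E2F and CCAAT words on either strand.
ORC2 (chr2:200963661-200963910, minus strand): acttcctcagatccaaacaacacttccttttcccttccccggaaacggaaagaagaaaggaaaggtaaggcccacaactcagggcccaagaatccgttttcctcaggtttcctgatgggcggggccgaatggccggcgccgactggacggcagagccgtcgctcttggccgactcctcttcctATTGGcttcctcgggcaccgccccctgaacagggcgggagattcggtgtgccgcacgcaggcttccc
POLA2 (chr11:65261712-65261961, plus strand): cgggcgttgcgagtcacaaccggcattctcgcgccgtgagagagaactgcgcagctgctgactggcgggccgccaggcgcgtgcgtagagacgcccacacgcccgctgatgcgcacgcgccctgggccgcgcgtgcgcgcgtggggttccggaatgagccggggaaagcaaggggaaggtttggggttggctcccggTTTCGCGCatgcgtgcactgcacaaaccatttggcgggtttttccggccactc
FEN1 (chr11:61792661-61792910, plus strand): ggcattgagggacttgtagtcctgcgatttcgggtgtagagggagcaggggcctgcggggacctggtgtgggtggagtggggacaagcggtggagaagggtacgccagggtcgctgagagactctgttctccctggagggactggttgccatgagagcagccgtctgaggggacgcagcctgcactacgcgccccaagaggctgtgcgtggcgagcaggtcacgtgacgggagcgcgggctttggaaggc
MCM3 (chr6:52284743-52284992, minus strand): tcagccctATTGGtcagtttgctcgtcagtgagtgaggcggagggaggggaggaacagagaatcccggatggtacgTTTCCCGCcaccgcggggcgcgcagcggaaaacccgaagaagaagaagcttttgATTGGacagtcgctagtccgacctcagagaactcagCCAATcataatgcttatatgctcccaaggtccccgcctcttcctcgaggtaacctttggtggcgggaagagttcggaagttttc
MCM6 (chr2:135876444-135876693, minus strand): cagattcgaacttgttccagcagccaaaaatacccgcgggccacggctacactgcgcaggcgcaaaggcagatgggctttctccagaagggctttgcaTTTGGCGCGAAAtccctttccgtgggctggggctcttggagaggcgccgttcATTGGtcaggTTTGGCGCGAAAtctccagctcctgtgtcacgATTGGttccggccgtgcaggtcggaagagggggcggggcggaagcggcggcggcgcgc
In ORC2 a CCAAT word stood 67 bases before the start on the opposite strand, and there was no E2F word in the window. In POLA2 TTTCGCGC began 53 bases before the start. MCM3 held TTTCCCGC 174 bases before the start and 3 CCAAT words at 242, 120 and 84 bases. FEN1 held neither.

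RPA3 carried the clearest change. The complex of RPA1, RPA2 and RPA3 binds exposed single strands at the fork, with RPA1 holding most of the DNA contacts and RPA3 joining the other subunits. RPA3 read 13.35, 13.25 and 13.15 on the siGRAMD1B arrays, against 12.85, 12.79 and 12.60 on the siControl arrays. Every siGRAMD1B array stood above every siControl array. Means were 13.25 ± 0.10 in siGRAMD1B and 12.75 ± 0.13 in siControl (SD, n = 3 each), a difference of 0.50 ± 0.10 (SE, limma adjusted p = 0.0054). It stayed past the threshold when any 1 array was left out and missed it with a background offset of 16 (0.51, adjusted p = 0.067) and with median centring (0.42, adjusted p = 0.064). An exact 2-sided permutation test over the 6 arrays gave 0.10, the smallest value that 3 against 3 allow.

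The partners of RPA3 did not pass the test. RPA1, the large subunit, read 11.88, 12.01 and 11.67 in siGRAMD1B, against 11.83, 11.56 and 12.14 in siControl, so that the siControl arrays enclosed the others. Its difference was 0.01 (95% interval -0.27 to 0.28, adjusted p = 0.99), and its other probes differed by 0.00 and 0.08. RPA2, the subunit phosphorylated in the cell cycle and after damage, read 10.01, 9.98 and 10.03, against 10.19, 10.25 and 9.98, a difference of -0.14 (adjusted p = 0.53).

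**Figure D3:**
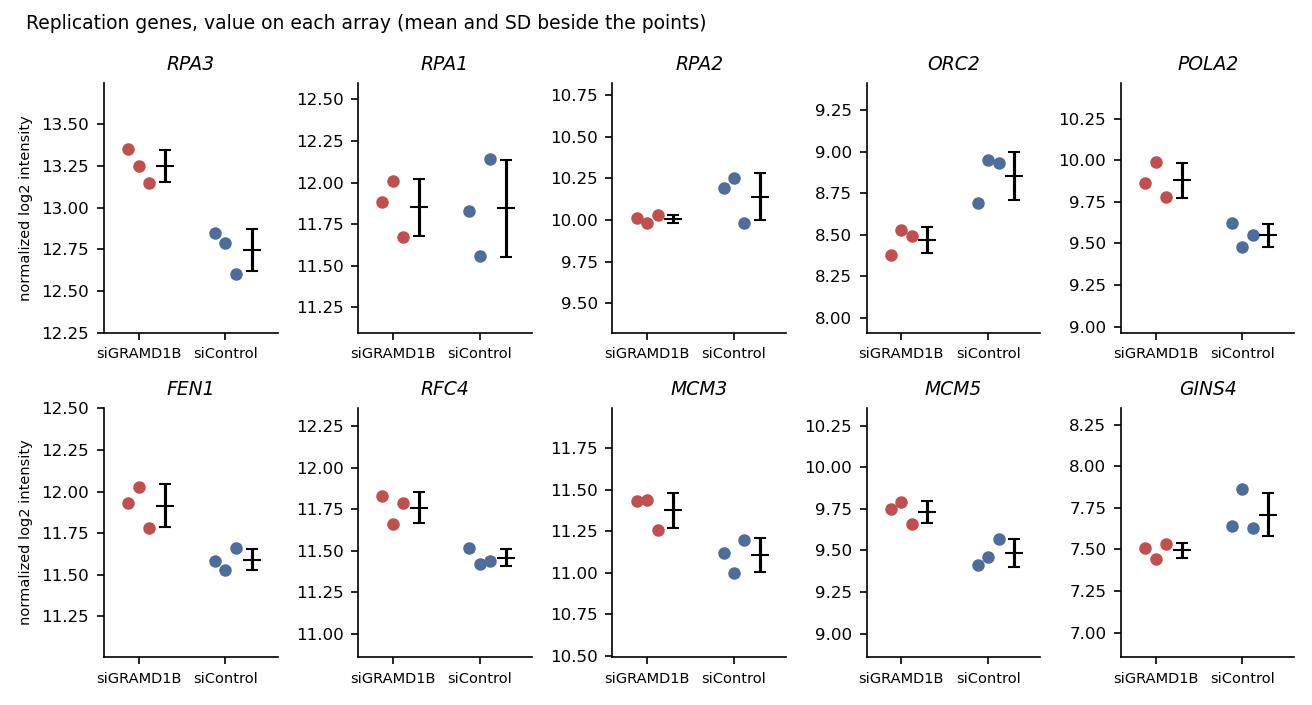
Normalized log2 intensity of 10 replication genes on each siGRAMD1B array (red, left) and siControl array (blue, right), with the mean and SD of each group beside the points. All panels span 1.5 log2 units, and RPA3 and ORC2 show the widest separation. In all panels but RPA1 and RPA2 the groups are separate, whereas they overlapped for 34 of the 45 replication genes.

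ORC2 was the gene that fell. It belongs to the core of the origin recognition complex, which stays on chromatin through most of the cycle. ORC2 read 8.38, 8.53 and 8.49 in siGRAMD1B, against 8.69, 8.95 and 8.93 in siControl, without overlap. The means of 8.47 ± 0.08 and 8.85 ± 0.15 (SD, n = 3 each) differed by -0.38 ± 0.10 (SE, limma adjusted p = 0.032). The call was lost on leaving out siControl array 2 (-0.34, adjusted p = 0.10) or 4 (-0.35, 0.075), or siGRAMD1B array 2 (-0.34, 0.14), 3 (-0.42, 0.060) or 4 (-0.40, 0.086), and held without siControl array 1. It was also lost with median centring (adjusted p = 0.16) and with the offset of 16 (adjusted p = 0.12).

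None of the other subunits of the origin recognition complex passed. ORC1, the subunit whose level rises and falls with the cycle, differed by 0.01, ORC3 by -0.05, ORC4 by -0.04 and ORC5 by -0.03, with adjusted p-values between 0.85 and 0.97. A second, dimmer ORC5 probe differed by -0.19 (95% interval -0.43 to 0.04, adjusted p = 0.36). ORC6 was the brightest probe of all replication genes and read 14.57, 14.43 and 14.40 in siGRAMD1B, against 14.59, 14.54 and 14.34 in siControl. Its second probe lay far lower, at 8.40 ± 0.11 and 8.37 ± 0.09 (SD, n = 3 each), and the probes differed by -0.02 and 0.03 between groups. For the loaders, CDC6 differed by 0.09 (95% interval -0.13 to 0.30) and CDT1 by -0.01 (-0.22 to 0.21). CDC6 was dim, at 6.56 ± 0.13 in siGRAMD1B and 6.47 ± 0.04 in siControl (SD, n = 3 each), close to the array median of 6.27.

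All 6 subunits of the MCM2 to MCM7 ring had positive differences and 0 of 6 passed. At an unadjusted p under 0.05, 2 were higher and 0 lower, where the background over all tested genes was 13.4% and 9.96%. Of all tested genes 47.8% had negative differences. This ring and the role groups below hold too few genes to be set against these shares. The median of the ring was 0.13 and the range 0.02 to 0.27. MCM3 read 11.43, 11.44 and 11.26 in siGRAMD1B, against 11.12, 11.00 and 11.20 in siControl, so that the groups were separate by a narrow gap. Its difference was 0.27 ± 0.10 (SE, limma adjusted p = 0.14), and a dimmer MCM3 probe differed by 0.37 (adjusted p = 0.078). MCM5 read 9.75, 9.79 and 9.66, against 9.41, 9.46 and 9.57, also without overlap, a difference of 0.25 (limma adjusted p = 0.16). MCM2 (0.18), MCM4 (0.08), MCM7 (0.07) and MCM6 (0.02) overlapped between groups. MCM7, the brightest of the ring at 12.33 ± 0.14 in siGRAMD1B and 12.26 ± 0.02 in siControl (SD, n = 3 each), had an interval of -0.14 to 0.29.

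Of the 6 factors that turn the ring into an active helicase, 5 had positive differences and 1, GINS4, a negative one. CDC45, which bridges the ring and GINS, read 10.62, 10.93 and 10.74 in siGRAMD1B, against 10.53, 10.72 and 10.37 in siControl, a difference of 0.23 (adjusted p = 0.29) with overlap. MCM10, needed for helicase activation, had separate groups at its brighter probe (0.13, adjusted p = 0.52) and differed by 0.23 at the dimmer one (adjusted p = 0.22). GINS4 went the other way from the rest of its complex. It read 7.51, 7.44 and 7.53 in siGRAMD1B, against 7.64, 7.86 and 7.63 in siControl, without overlap, but the difference of -0.21 did not pass (limma adjusted p = 0.25). GINS1, GINS2 and GINS3 differed by 0.05, 0.10 and 0.11. None of these 6 genes passed, and at an unadjusted p under 0.05 0 were higher and 1, GINS4, was lower.

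In the clamp and clamp loader, 5 of 6 genes had positive differences and 0 passed, with 2 higher and 0 lower at an unadjusted p under 0.05. RFC4, a small subunit of the loader that opens PCNA, read 11.83, 11.66 and 11.79 in siGRAMD1B, against 11.52, 11.42 and 11.44 in siControl. These groups did not overlap, and the difference of 0.30 ± 0.10 (SE) fell short (limma adjusted p = 0.077). A second RFC4 probe gave 0.25 (adjusted p = 0.17), also with separate groups. RFC1, the large subunit, differed by 0.27 with siControl values spread over 9.48, 8.97 and 9.48 (adjusted p = 0.24). PCNA read 12.31, 12.10 and 12.27 in siGRAMD1B, against 12.15, 12.05 and 12.04 in siControl, so that siGRAMD1B array 3 fell among the siControl values, and the difference of 0.15 had an interval of -0.06 to 0.36. RFC3 was the exception at -0.15 (adjusted p = 0.54), and RFC5 and RFC2 differed by 0.14 and 0.16.

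Polymerase alpha-primase had the second highest median of the role groups (0.21 over 4 genes), with 0 passed and 2 higher and 0 lower at an unadjusted p under 0.05. POLA2, the accessory subunit that ties the polymerase to the fork, read 9.86, 9.99 and 9.78 in siGRAMD1B, against 9.62, 9.48 and 9.55 in siControl. The groups were separate, with a difference of 0.33 ± 0.10 (SE), and the limma adjusted p of 0.056 lay just outside the threshold. PRIM1, the catalytic primase subunit, read 10.18, 10.07 and 10.20, against 9.99, 9.89 and 9.83, a difference of 0.25 (limma adjusted p = 0.16). PRIM2, its partner, differed by 0.17 and POLA1, the catalytic polymerase subunit, by 0.08, both with overlap.

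For the polymerases that extend the primers, 4 of 5 differences were positive, 0 passed and 0 were past an unadjusted p of 0.05 in either direction. POLE and POLE2, the catalytic and accessory subunits of the leading strand polymerase epsilon, differed by 0.20 (adjusted p = 0.38) and 0.16 (adjusted p = 0.42). POLD1, the catalytic subunit of the lagging strand polymerase delta, differed by 0.13 and POLD3, an accessory subunit, by 0.19, while POLD2 differed by -0.07. FEN1, the nuclease that trims the flaps of Okazaki fragments, read 11.93, 12.03 and 11.78 in siGRAMD1B, against 11.58, 11.53 and 11.66 in siControl. The FEN1 groups were separate at both probes, with differences of 0.33 (limma adjusted p = 0.063) and 0.22 (adjusted p = 0.26). At the dimmer probe the gap was narrow, from 9.82 on siControl array 1 to 9.83 on siGRAMD1B array 4. LIG1, the ligase that seals the fragments, differed by 0.17 with overlap (adjusted p = 0.45).

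The call on FEN1, POLA2 and RFC4 depended on the processing. With the deposited normalized values all 3 were higher, with adjusted p-values of 0.020, 0.018 and 0.021 beside RPA3 at 0.0018 (limma). They also passed without background correction, with a filter at the 70th percentile of brightness, and with a variance trend and robust fit used together. In each of these settings 4 replication genes were called higher, of 45 tested or, under the stricter filter, of 41. The share of all tested genes called higher was larger there too, at 7.16% with the deposited values, 7.06% without background correction, 10.7% with the stricter filter and 6.31% with trend and robust fit. FEN1 passed with array weights as well. Their differences stayed positive under every alternative tried, between 0.26 and 0.39 for FEN1, 0.27 and 0.38 for POLA2, and 0.25 and 0.38 for RFC4.

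The regulators of S-phase entry had 0 of 5 genes past the threshold, and 0 in either direction at an unadjusted p under 0.05. E2F1, the activator of many replication genes, read 7.24, 7.54 and 7.68 in siGRAMD1B, against 7.96, 7.05 and 7.56 in siControl. Its SD of 0.46 in siControl and its SE of 0.17 were the widest of the 45 genes, so only a broad interval could be given (-0.39 to 0.32). E2F2 differed by 0.08. CCNE1 read 8.85, 8.80 and 8.83 in siGRAMD1B, against 8.70, 8.76 and 8.65 in siControl, separate but by 0.12 only (limma adjusted p = 0.54). CCNE2, its close relative, was dim and differed by -0.09. CDK2, the kinase both cyclins activate, read 10.40, 10.43 and 10.29, against 10.22, 10.14 and 10.32, a difference of 0.15 (95% interval -0.06 to 0.36).

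Several genes were read by more than 1 probe, and these did not always go the same way. Of the 70 probes, 65 passed the filter on low values and 5 lay below it, each a further probe of a gene whose brightest probe was tested. Of 18 genes with several tested probes, 12 had 1 sign throughout and 6 (ORC6, MCM7, PCNA, RFC2, RFC3 and POLD3) had probes of both signs. RFC3 showed the widest split. Its brighter probes differed by -0.15 and -0.10, while a dim one, annotated to another transcript, read 6.76, 7.10 and 6.83 in siGRAMD1B, against 6.58, 6.58 and 6.46 in siControl (0.35, limma adjusted p = 0.057). For PCNA the dimmer tested probe read 6.62, 6.75 and 6.70, against 6.82, 6.92 and 6.95, a difference of -0.21 (limma adjusted p = 0.25) opposite in sign to that of its bright probe. RPA3 and ORC2 each had 1 probe, so neither call has a second probe behind it. Of the 12 genes of 1 sign, ORC5 and POLD2 were negative at their tested probes. MCM3, MCM4, MCM10, RFC1, RFC4, POLA1, PRIM1, FEN1, RPA1 and CDK2 were positive. Among the positive ones, the groups were separate at every tested probe only for RFC4 and FEN1.

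**Figure D4:**
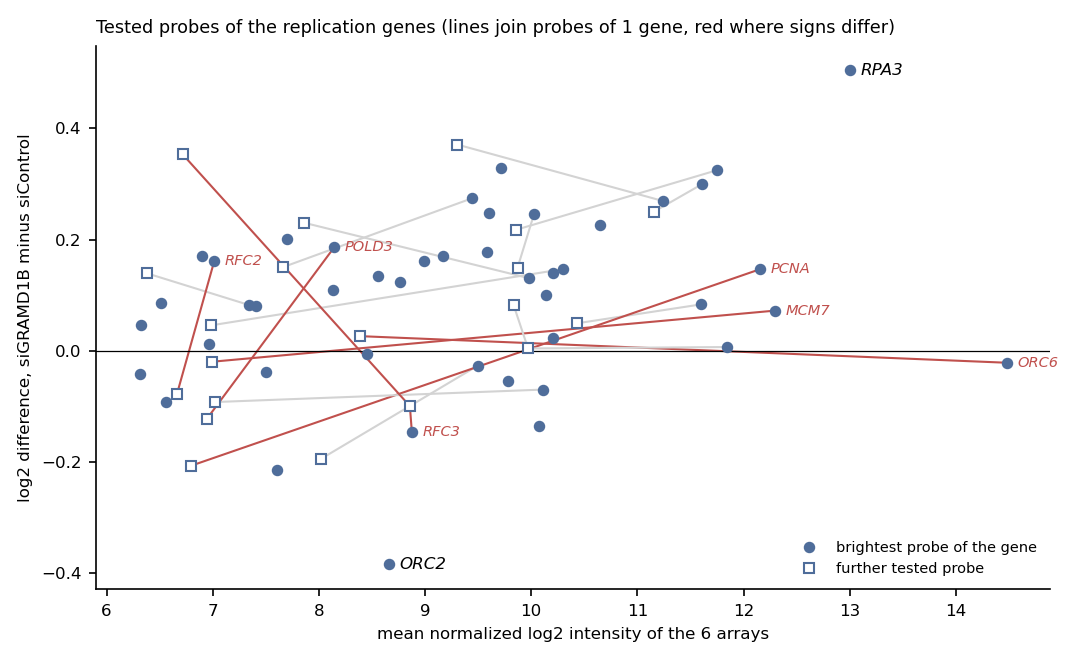
Log2 difference, siGRAMD1B minus siControl, of the 65 tested probes of the replication genes against their mean normalized log2 intensity on the 6 arrays. Filled circles are the brightest probe of a gene and open squares its further probes, lines join probes of 1 gene, and red lines mark the 6 genes whose probes differ in sign.

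Around this core, 5 further lists of the replication pathway held 69 tested genes, of which 4 were higher and 3 lower, shares close to the 5.71% and 3.72% of all tested genes. The genes named from them are the called ones and stand for themselves, not for their lists. Among 17 genes of origin firing and fork protection, 2 were higher and 0 lower (median 0.03). TIMELESS, which travels with the fork and steadies it, read 10.19, 10.17 and 10.03 in siGRAMD1B, against 9.56, 9.60 and 9.59 in siControl (0.55 ± 0.10 SE, limma adjusted p = 0.0016). CDC25A, the phosphatase that activates CDK2, read 9.10, 9.16 and 9.17, against 8.66, 8.74 and 8.73 (0.44, limma adjusted p = 0.0086). The CDC25A call was lost with an offset of 16 (adjusted p = 0.061) and with median centring (0.053), and that of TIMELESS in no alternative. Both genes were higher on every siGRAMD1B array than on any siControl array. DTL, the adaptor that sends CDT1 for degradation at PCNA, was the 1 higher gene of 10 in licence control and degradation, with 0 lower (median 0.00). It read 9.01, 9.14 and 8.81 in siGRAMD1B, against 8.40, 8.26 and 8.64 in siControl (0.56, limma adjusted p = 0.0063), beside the difference of -0.01 for CDT1 itself, and missed the threshold with an offset of 16 (adjusted p = 0.071).

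Of 20 genes of lagging strand synthesis, clamp unloading and chromatin assembly, 1 was higher and 1 lower (median 0.07). POLD4, the smallest subunit of polymerase delta, read 8.23, 8.15 and 8.30 in siGRAMD1B, against 7.74, 7.95 and 7.59 in siControl (0.46, limma adjusted p = 0.013). It missed the threshold without siControl array 1 (adjusted p = 0.051) or siGRAMD1B array 4 (adjusted p = 0.070), and with an offset of 16 (0.081). DSCC1, part of an alternative clamp loader that acts in sister chromatid cohesion, read 8.64, 8.77 and 8.58, against 9.05, 8.97 and 8.98 (-0.34, limma adjusted p = 0.045), and lost the call whichever array was left out (adjusted p 0.057 to 0.17). Of 17 E2F and RB regulators, 0 were higher and 2 lower (median -0.07). E2F5, a repressor of the family, read 8.27, 8.15 and 8.02 in siGRAMD1B, against 8.72, 8.78 and 8.67 in siControl (-0.58, limma adjusted p = 0.0014). CDKN1B, the inhibitor of cyclin E-CDK2 known as p27, read 10.10, 10.22 and 10.32, against 10.73, 10.74 and 10.69 (-0.50, limma adjusted p = 0.0037, and 0.052 with an offset of 16). Of 5 genes of nucleotide supply 0 passed in either direction (median 0.10). At an unadjusted p under 0.05, 2 were higher and 1 lower, where the background over all tested genes was 13.4% and 9.96%.

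**Figure D5:**
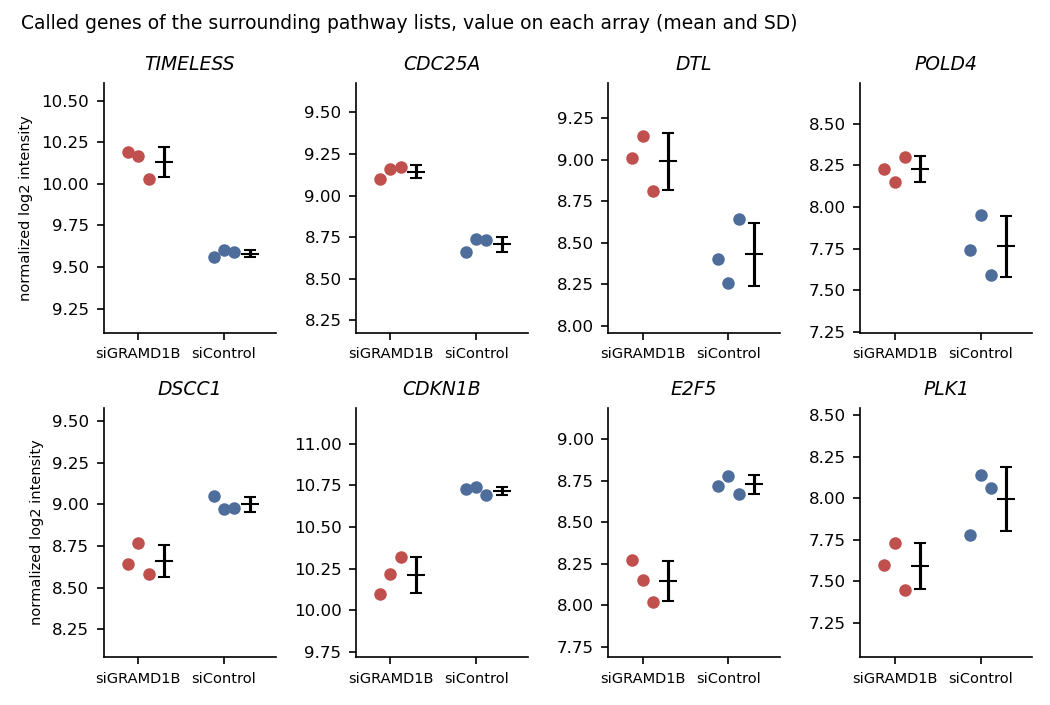
Normalized log2 intensity of 8 genes from lists around the replication core on each siGRAMD1B array (red, left) and siControl array (blue, right), with mean and SD. In each panel the groups are separate, higher in siGRAMD1B for TIMELESS, CDC25A, DTL and POLD4 and lower for DSCC1, CDKN1B, E2F5 and PLK1.

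Markers of division and of the cells themselves were read beside these results. Of 10 mitotic and proliferation markers, 0 were higher and 1, the mitotic kinase gene PLK1, was lower (-0.40, limma adjusted p = 0.039). Of these, 7 of 10 were negative, with a median of -0.10, opposite in sign to the median of the replication genes. Over all tested genes 5.71% were called higher, 3.72% lower and 47.8% were negative, shares that apply to the other marker lists too. The PLK1 call was lost without siControl array 2 (adjusted p = 0.14) or 4 (0.087) or siGRAMD1B array 2 (0.11) or 4 (0.18). The summed linear level of the mitotic list was 18691 to 20159 in siGRAMD1B and 20542 to 21583 in siControl, and its part in the results above was not tested. The line expressed PAX8, a marker of the ovarian and tubal lineage (10.14 in siGRAMD1B and 10.25 in siControl), and VIM and CDH2 were bright. On the same list of cell line markers, WT1 was dim (6.92 in siGRAMD1B and 6.76 in siControl). MUC16 lay below the filter (6.08 and 6.15). Epithelial markers were mixed. The keratin genes KRT8 (11.44 in siGRAMD1B and 11.10 in siControl, limma adjusted p = 0.064) and KRT18 (7.91 and 8.20, adjusted p = 0.19) were expressed without passing. KRT19, EPCAM and CDH1 lay near the array median of 6.27 or below. CDH2 was lower by -0.38 (limma adjusted p = 0.023), a call lost in 6 of 15 alternatives, among them leaving out siControl array 4 or any siGRAMD1B array (adjusted p 0.059 to 0.085). Of 6 tested leukocyte markers 4 were negative, with a median of -0.07, and 1, CD68, a lysosomal protein gene of many cell types, was higher (0.37). Its call was lost in 8 of 15 alternatives, with siControl array 1 or 4 or any siGRAMD1B array left out (adjusted p 0.051 to 0.088). The summed linear level of the 9 leukocyte genes measured was 3988 to 4220 in siGRAMD1B and 3236 to 3407 in siControl, and this difference came from CD68. The other 8 averaged 6.04 to 6.53 in siGRAMD1B and 5.98 to 6.66 in siControl, near the array median. Of 10 fibroblast and endothelial markers 8 were tested and 1, the dim VWF, was higher (0.38). This call was lost in 9 of 14 alternatives, with siControl array 1 or 4 or siGRAMD1B array 2 or 4 left out (adjusted p 0.052 to 0.15). The endothelial gene CDH5 was well expressed (9.52 in siGRAMD1B and 9.71 in siControl) and did not pass, and the list summed to 1369 to 1503 in siGRAMD1B and 1472 to 1655 in siControl. The part of these markers in the replication results was not tested. Of 8 constitutive genes 1, PPIA, was lower (-0.40), a call lost in 8 of 15 alternatives, with siControl array 1 or 2 or any siGRAMD1B array left out (adjusted p 0.060 to 0.11). The target GRAMD1B read 6.26, 6.23 and 6.17 in siGRAMD1B, against 6.42, 6.41 and 6.57 in siControl (-0.25, limma adjusted p = 0.15), so the knockdown itself did not pass at this dim probe.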

How the data were processed

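Total RNA of HeyA8-MDR cells was amplified to biotin-labelled cRNA and read on Illumina bead arrays, per the labels' protocols. The deposited table of intensity values, which comes from BeadStudio according to the submitters' processing notes, is linear and not normalized between arrays as far as its values show (medians 102.7 to 128.8). Its header holds 1 extra name, which displaces the array names. They were realigned and checked against the second deposited table (Spearman's rho 1.00 for the same array, at most 0.85 for another, across probes). That table holds log2 values that the authors normalized by a method not given in the sources used here.

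With no detection p-values, normexp with an offset of 50, quantile normalization and log2 were applied. Probes whose mean exceeded the 40th percentile (6.16) were tested with limma 3.58.1 in R 4.3.3 (lmFit and eBayes, 2-sided) and Benjamini-Hochberg adjustment. The test had 17.9 degrees of freedom. The procedure was tested on simulated data with planted changes of 1.5-fold or more, in bright probes only. Smaller changes, such as those of the 45 genes, were not simulated. Gene symbols came from the platform annotation, and all 45 symbols matched RefSeq by Entrez identifier. The brightest probe stood for a gene. Alternatives changed the background correction, normalization, filter, variance model, probe choice and replicate block, used the deposited log2 values, or left out 1 array. Named genes were those past the threshold, the member of each role with the smallest p or highest mean, and the called genes of each list. Others were named for completeness. The members and lists were chosen with earlier results of these data known.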

Additional observations from a re-analysis of the deposited data

How the results depend on the processing

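Fold sizes near the threshold, the dim probes and 3 arrays a group limit these results. In the reported setting 1 replication gene was lower and 1 higher, and 909 probes in all were lower and 1101 higher. With an offset of 16, 0 and 0 replication genes were called, with 234 probes lower and 449 higher in all, and with median centring 0 and 0, with 419 and 603. Higher replication genes numbered 4 without background correction, with the deposited normalized values, with a filter at the 70th percentile and with a robust fit and variance trend, and 2 with array weights. In these settings all probes called higher also rose in number, to 1351, 1369, 1304, 1219 and 1232, with 1144, 1153, 1163, 1008 and 1076 lower. The median of the replication genes stayed between 0.08 and 0.14 under every alternative tried. With 1 array left out it ran from 0.08 to 0.13, the lower replication genes from 0 to 1, the higher stayed at 1, and all probes ran from 450 to 1036 lower and 667 to 1151 higher. The groups share the numbers 2 and 4, and the labels state no pairing. Deviations from the group means had r 0.02 and -0.15 across probes for arrays of the same number. For arrays of crossed numbers r was -0.02 (siGRAMD1B 2 with siControl 4) and 0.14 (siGRAMD1B 4 with siControl 2). With 3 arrays a group these values cannot tell whether the numbers pair the arrays. With the replicate number as a block, differences rested on arrays 2 and 4 alone, since numbers 1 and 3 each occur in 1 group. In this setting 409 probes were lower and 578 higher. Of the replication genes 1 was called in each direction, ORC2 lower and RPA3 higher. CDC25A (adjusted p = 0.14) and DTL (0.065) were no longer called. Under that block ORC6 (0.048), MCM7 (-0.019) and POLD2 (0.050) turned sign. With the probe of smallest p ORC6 (0.026) and PCNA (-0.21) turned, and with median centring CDT1 (0.013). With 1 array left out ORC6 ran from -0.099 to 0.029, CDT1 from -0.075 to 0.044, MCM7 from -0.0080 to 0.14 and POLD2 from -0.15 to 0.028. None of these genes was called in any of these settings. The cause of these moves was not tested.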
